A study of Mus musculus with 6 samples.

Results

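Macrophage and myeloid genes were examined in cultures of mouse embryonic fibroblasts. They were 35 genes chosen by name, out of 18193 genes that have a probe set with a single symbol in the annotation of the array. A probe set is a group of short oligonucleotides on the array that measures 1 transcript or a few related ones. All 35 genes had at least 1 probe set, 64 in all, and 16 genes had more than 1. Each gene was represented by its probe set with the highest mean over the 6 arrays.

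Each of 6 cultures was hybridised to 1 Affymetrix Mouse Genome 430 2.0 array, from 3 Zmpste24-/- and 3 wild-type (Zmpste24+/+) cultures. The protease encoded by Zmpste24 trims prelamin A into mature lamin A of the nuclear lamina. Both groups were C57BL/6 fibroblasts from E13.5 embryos, taken at passage 3 after growth in DMEM with fetal calf serum, and the labels name no other allele or agent. The cultures are numbered 1 to 3 in each genotype. The labels speak of pairs of the genotypes and do not state that a number marks a pair, which part of Zmpste24 was deleted, or what sex the embryos had. Nothing says whether a culture came from 1 embryo or several, so p-values below measure only the spread between these cultures.

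Macrophages arise early in the embryo from yolk sac and fetal liver precursors and settle in nearly all tissues, so primary cultures made from embryos can carry them. The transcription factor PU.1, encoded by Spi1, and the receptor for colony-stimulating factor, encoded by Csf1r, specify and maintain these cells. Mature macrophages make complement C1q, lysozyme and lysosomal proteases, and take up particles through Fc, pattern recognition and scavenger receptors. Fcer1g encodes an adaptor of several Fc receptors, and Tyrobp encodes that of TREM2 and related receptors.

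Signals are linear intensities in arbitrary units, and every array had been scaled to a mean of 500 after the lowest and highest 2% of probe sets were left out. Probe sets with a mean under 39.4, the dimmest 40%, were not tested. That left 27022 probe sets, and 30 of the 35 genes. Fcgr1, Cd163, Itgam, Cx3cr1 and Aif1 fell under this level. Both arrays numbered 1 stood apart from the others. Over the 27022 probe sets tested, on a log2 scale, r was 0.985 between these arrays. It was 0.927 to 0.934 between either and the other 4, which reached 0.980 to 0.987 among themselves. The Zmpste24 probe set had a signal of 182 to 365 in the Zmpste24-/- cultures and 2043 to 3850 in the wild-type cultures. Xist, the RNA of the inactive X chromosome, was at 4766 or more in all Zmpste24-/- cultures and at 5324 in wild-type culture 1, and at 69.3 and 43.7 in wild-type cultures 2 and 3. By this transcript the genotypes were of unlike sex in numbers 2 and 3 but of like sex in number 1, so in numbers 2 and 3 genotype and sex cannot be told apart. All 15 fibroblast markers with a probe set were above the filter level on every array.

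Most of the myeloid genes were higher in both cultures numbered 1 than in the others. Their signals, summed over the 35 genes, came to 32703 in Zmpste24-/- culture 1 and 20109 in wild-type culture 1. The sums were 3734 and 3887 in Zmpste24-/- cultures 2 and 3, against 4488 and 6058 in wild-type cultures 2 and 3. Without Lyz1 and Lyz2, the brightest of the genes, the sums were 13382, 2263 and 2337 in Zmpste24-/- cultures 1, 2 and 3, and 7574, 2546 and 3214 in wild-type cultures 1, 2 and 3. Cultures numbered 1 were thus the high ones in both genotypes. In each culture numbered 1, 31 of the 35 genes exceeded the filter level, and in the other 4 cultures 19 to 24 did. In bulk RNA such as this, fewer cells of a type and less RNA per cell cannot be told apart.

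**Figure D1:**
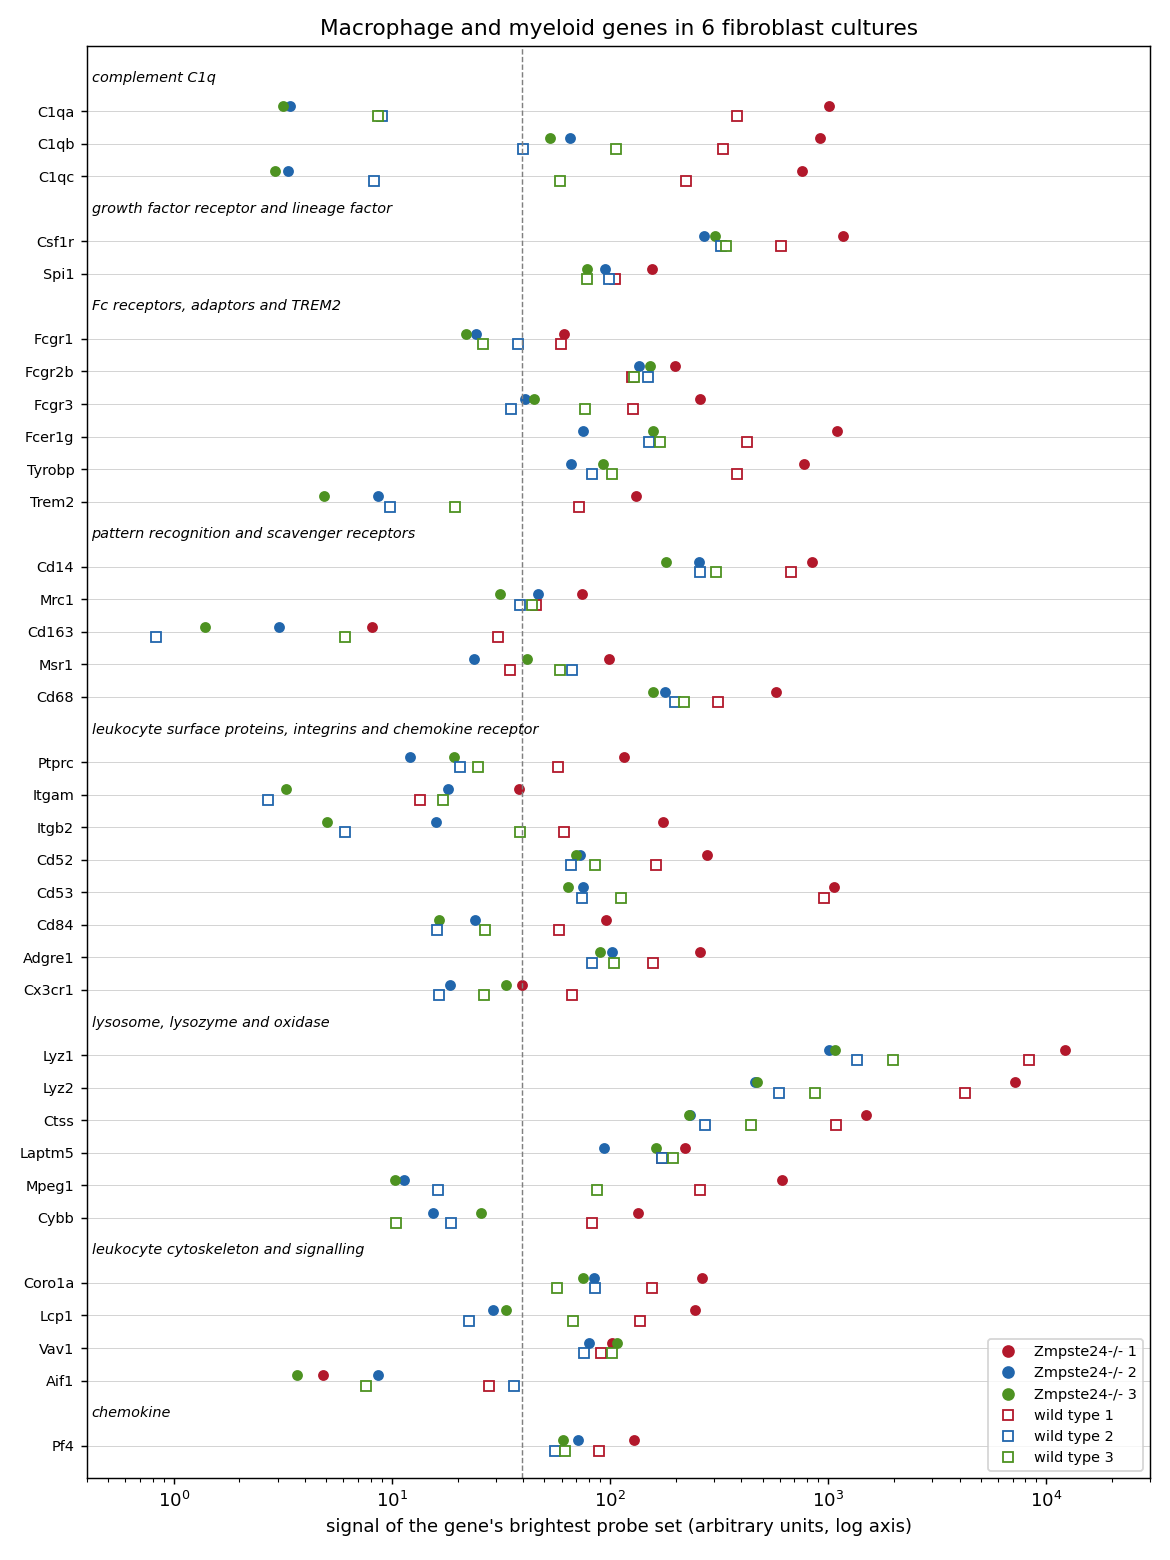
Signal of each of the 35 genes by its brightest probe set (log axis, arbitrary units), grouped by role. Filled circles are Zmpste24-/- cultures, drawn above the open squares of wild-type cultures, with colour giving the culture number; the dashed line is the filter level of 39.4. For 28 of the 35 genes both cultures numbered 1 (red) lie to the right of the other 4.

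The sequence around the start of each gene was also described. RefSeq windows on GRCm38.p6, of 250 bases before to 50 bases after the start, matched 26 of the 35 genes. The letters GAGGAA, the core that PU.1 prefers, were searched on both strands, and GAGGAAGT, an extended form that contains GAGGAA, was searched in the same way. GAGGAA stood in the windows of 17 of the 26 genes (65.4%), against 31.3% of all genes in the table. GAGGAAGT stood in 5 of the 26 (19.2%), namely C1qc, Cd53, Ctss, Pf4 and Vav1, against 3.69% of all genes. A match is a description of letters and not a binding site. The stretches below, 120 bases each, show genes with the extended form (C1qc, Vav1), genes with the short form alone (C1qb, Trem2) and genes with neither anywhere in the window (Lyz2, Mpeg1), with matches on either strand in capitals. That for C1qc begins 250 bases before the start, and the others end at the base before it.
C1qc (chr4:136893045-136893164, minus strand): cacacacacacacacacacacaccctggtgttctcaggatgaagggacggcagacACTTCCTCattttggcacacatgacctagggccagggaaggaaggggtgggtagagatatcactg
Vav1 (chr17:57278980-57279099, plus strand): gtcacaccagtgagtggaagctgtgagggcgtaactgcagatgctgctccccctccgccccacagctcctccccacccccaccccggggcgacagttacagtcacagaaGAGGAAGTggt
C1qb (chr4:136886201-136886320, minus strand): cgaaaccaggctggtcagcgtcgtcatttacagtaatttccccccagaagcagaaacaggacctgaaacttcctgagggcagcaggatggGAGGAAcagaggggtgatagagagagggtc
Trem2 (chr17:48346281-48346400, plus strand): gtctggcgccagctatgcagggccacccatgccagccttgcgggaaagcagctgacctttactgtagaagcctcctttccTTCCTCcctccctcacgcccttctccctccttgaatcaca
Lyz2 (chr10:117282273-117282392, minus strand): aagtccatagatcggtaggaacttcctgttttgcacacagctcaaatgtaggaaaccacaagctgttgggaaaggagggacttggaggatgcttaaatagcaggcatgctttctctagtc
Mpeg1 (chr19:12460650-12460769, plus strand): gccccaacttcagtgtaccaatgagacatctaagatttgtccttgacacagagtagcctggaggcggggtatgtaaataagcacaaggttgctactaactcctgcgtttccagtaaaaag
Of the 5 genes with the extended form, C1qc, Cd53 and Ctss passed the test by culture number given below, and Pf4 and Vav1 did not. Lyz2 and Mpeg1, which have neither form, passed it too. Mrc1 and Laptm5, which have the short form alone, did not, while C1qb and Trem2, which also have it alone, did. Whether either form goes with the difference by number was not tested.

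The first question is whether the genes differed between the genotypes. None of the 30 tested genes passed the test. In limma over all 6 arrays, with Benjamini-Hochberg adjustment and a threshold of 0.05, 0 of 30 were called against 0.0% of all probe sets tested, and at an unadjusted p under 0.05 there were 0 of 30 genes and 349 of 27022 probe sets. That fit did not call the Zmpste24 probe set either (log2 difference -3.31, limma adjusted p = 0.987). Its lack of calls therefore cannot show that a gene did not differ, and its adjusted p-values given below share that limit. Zmpste24 was called once the number was a block (limma adjusted p = 4.02e-05). With the culture number as a block, limma called 0 of 30 genes against 0.0185% of all probe sets, and again 0 of 30 had an unadjusted p under 0.05, against 2430 of all probe sets. In numbers 2 and 3 alone it called 0 of 30 against 0.074% of all. There 3 of 30 genes had an unadjusted p under 0.05, against 1646 of 27022 probe sets (6.09%). All 3 were lower in Zmpste24-/-: Lyz1 (log2 difference -0.64, limma adjusted p = 0.467), Lyz2 (-0.60, adjusted p = 0.588) and the protease gene Ctss (-0.55, adjusted p = 0.785). The Lyz1 probe set can bind related transcripts, as described below, so Lyz1 and Lyz2 may not be separate results. In these numbers genotype also cannot be told apart from sex. For no tested gene did the 3 Zmpste24-/- cultures lie entirely above the 3 wild-type cultures, which held for 2.22% of all probe sets. Nor did they lie entirely below for any, which held for 3.03%. Both cultures numbered 1 lay above the other 4 for 25 of the 30 genes. The groups must then overlap whatever the genotype does, so for those genes these counts say nothing about genotype.

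The sign of the genotype difference varied with the culture number. On the scale log2(signal + 16), where 16 keeps dim signals from dominating, the median Zmpste24-/- minus wild-type difference of the 30 genes was 0.73 in number 1, -0.09 in number 2 and -0.37 in number 3. The medians of all probe sets tested were 0.01, -0.03 and 0.02. In number 1 all 30 tested genes were higher in Zmpste24-/-, against 51.2% of all probe sets. The counts were 11 of 30 in number 2, against 45.3% of all, and 5 of 30 in number 3, against 52.6% of all. Of all 35 genes, 16 were higher in Zmpste24-/- in number 1 and lower in both other numbers. The same sign in all 3 numbers was seen for 2 genes: Vav1, with differences of 0.15, 0.06 and 0.07, and Aif1, with -1.07, -1.08 and -0.26 at signals of at most 36.1. The share of all probe sets with either pattern was not computed. Whether the counts of 16 and 2 are unusual is therefore not known. Each genotype and number has 1 array, so whether the genotype difference depends on the number could not be tested.

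**Figure D2:**
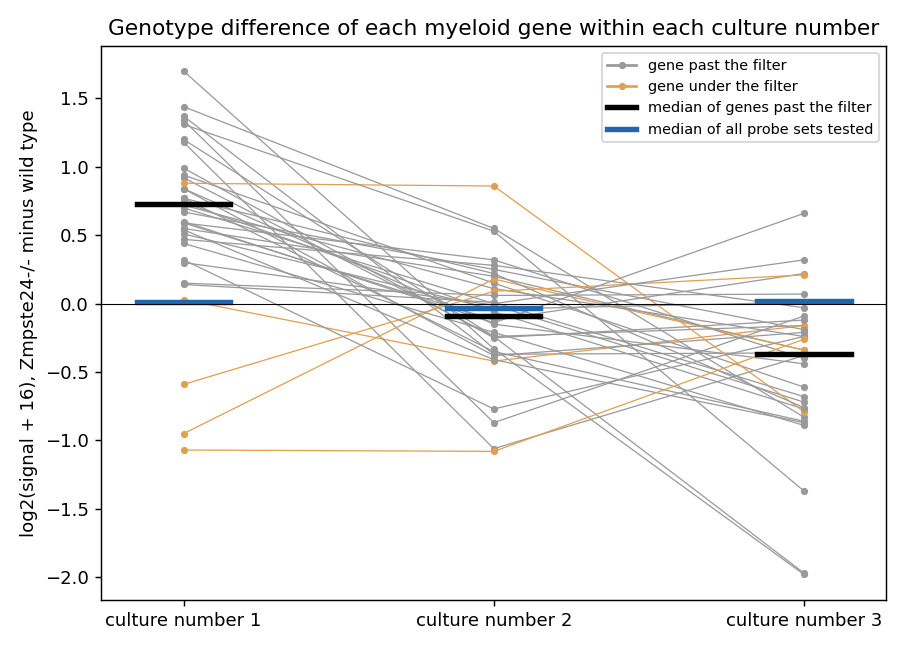
Zmpste24-/- minus wild-type difference in log2(signal + 16) for each of the 35 genes within culture numbers 1, 2 and 3, a line per gene. Grey marks the 30 tested genes and orange the 5 under the filter; black bars are the medians of the 30 genes (0.73, -0.09 and -0.37) and blue bars those of all probe sets tested.

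The culture number was then compared with genotype kept as a term, so that the spread in this fit is the extent to which the genotype difference varies between numbers. By limma's F-test 23 of the 30 tested genes differed between numbers (76.7%), against 41.6% of all probe sets tested. All 23 were higher in number 1 than in both other numbers, so the share of tested genes called in that direction is also 76.7%, against 22.1% of all probe sets tested. The median difference of the 30 genes was 1.75 on the log2 scale for number 1 minus 2, with a range of 0.14 to 4.85, and 1.52 for number 1 minus 3, with a range of -0.10 to 4.87. The medians of all probe sets were 0.06 and 0.01. Both cultures numbered 1 lay above the other 4 for 25 of the 30 tested genes, against 31.2% of all probe sets. Between numbers 2 and 3 limma called 0 of the 30 genes, against 0.0074% of all, and at an unadjusted p under 0.05 there were 0 of the 30 and 1851 of all probe sets. The median difference was -0.18.

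The filter acted on the mean over all 6 arrays, so a gene bright in number 1 alone could pass it. That was so for 9 of the 30: C1qa, C1qc, Trem2, Ptprc, Itgb2, Cd84, Mpeg1, Cybb and Lcp1 had means under 39.4 over numbers 2 and 3. Of the other 21, the F-test called 14 (66.7%), against 41.7% of all probe sets with a mean above 39.4 over numbers 2 and 3. Without any filter it called 20 of all 35, against 21.3% of 45037 probe sets. Without Zmpste24-/- replicate 1 it called 13 of 30, against 31.0% of all probe sets, and without wild-type replicate 1 it called 23, against 30.9%. What a culture number stands for is not given, so the embryo, the culture and the array cannot be told apart as sources of the difference. Sex by Xist was unbalanced as well, since wild-type cultures 2 and 3 were low for it and both cultures numbered 1 were high. Its part in the difference was not tested.

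**Figure D3:**
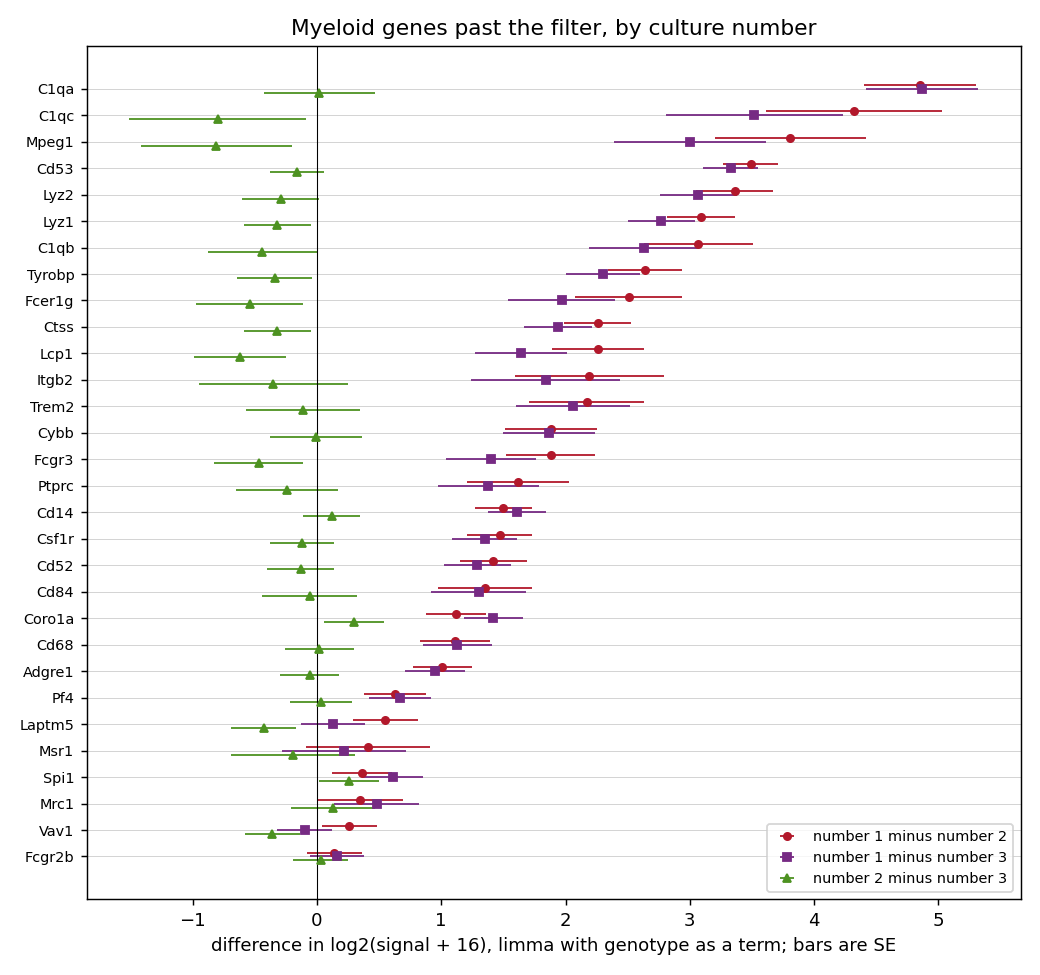
Differences between culture numbers in log2(signal + 16) for the 30 tested genes, from limma with genotype as a term, with bars of 1 standard error (6 arrays). Red circles are number 1 minus 2, purple squares number 1 minus 3 and green triangles number 2 minus 3; the green points stay between -0.81 and 0.30.

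The genes of complement C1q, the recognition molecule of the classical pathway, were high in number 1. C1qa encodes the A chain and had signals of 1008, 3.40 and 3.18 in Zmpste24-/- cultures 1, 2 and 3, against 380.0, 9.02 and 8.67 in wild-type cultures 1, 2 and 3. Only the cultures numbered 1 stood above the filter level, and the ranges of the genotypes overlapped. The number 1 minus 2 difference was 4.85 (SE 0.45) on the scale log2(signal + 16) and the F-test's adjusted p was 1.32e-04 in limma. Its size depends on the added 16, since the signals outside number 1 were far under the filter level. The B chain gene C1qb had 916, 65.7 and 52.8 in Zmpste24-/-, against 328, 39.8 and 106 in wild type. The C chain gene C1qc had 761, 3.33 and 2.93 in Zmpste24-/-, against 224, 8.27 and 58.8 in wild type. All 3 chains thus shared the high cultures, and C1qb and C1qc had a next highest value in wild-type culture 3. On the same scale C1qb differed by 3.07 (SE 0.44) and C1qc, also dim outside number 1, by 4.32 (SE 0.71) between numbers 1 and 2, with limma adjusted p of 0.00161 and 0.00333 in the F-test. Within number 1 the Zmpste24-/- signals were 2.65, 2.79 and 3.40 times the wild-type signals for C1qa, C1qb and C1qc, each from 1 array against 1. Over all 6 arrays C1qa differed by 0.21 (SE 1.82) between genotypes, and limma's adjusted p was 1.0, or 0.889 with the replicate block. In numbers 2 and 3 alone it was -0.37, at signals far below the filter level.

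Csf1r, the receptor that macrophages need to survive, was measurable in every culture. Its signal was 1168, 270.3 and 303 in Zmpste24-/- cultures 1, 2 and 3, against 608, 321 and 340.4 in wild-type cultures 1, 2 and 3. The cultures numbered 1 were high, and the other 4 stayed within 270.3 to 340.4. The F-test's adjusted p was 0.00417 in limma, with differences of 1.47 (SE 0.26) and 1.35 (SE 0.26) for number 1 against 2 and 3. The genotype difference was 0.18 (SE 0.58), with limma adjusted p of 1.0 and 0.833 with the replicate block. The other probe sets of Csf1r disagreed with it. The second brightest had 391, 119.5 and 137 in Zmpste24-/- against 171, 131 and 197 in wild type, and was high in Zmpste24-/- culture 1 alone. The third had 167.5, 172 and 157.5 in Zmpste24-/- against 121.5, 151 and 179 in wild type, with no culture standing out. The F-test called neither, with limma adjusted p of 0.118 and 0.669.

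Spi1, which encodes PU.1, was above the filter level in every culture. It had 156, 95.1 and 78.5 in Zmpste24-/- cultures, against 105, 98.5 and 78.2 in wild-type cultures. Both cultures numbered 1 were above the other 4, though wild-type culture 1 only by a little. The differences were 0.36 and 0.61 for number 1 against 2 and 3 (SE 0.24 each), and the F-test's limma adjusted p was 0.153. The genotype difference was 0.16 (SE 0.27), with limma adjusted p of 1.0 and 0.835 with the replicate block.

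Among Fc receptors, adaptors and TREM2, 4 of the 5 tested genes differed by number, against 41.6% of all probe sets tested. Of these, Trem2 passed the filter only through number 1. Fcer1g encodes the chain that couples several Fc receptors to kinases. It had 1099, 75.0 and 158 in Zmpste24-/-, against 426, 151 and 169 in wild type. Tyrobp encodes the adaptor of TREM2 and related receptors and had 775, 66.5 and 93.1 in Zmpste24-/-, against 383, 82.3 and 102.5 in wild type. The cultures numbered 1 were high in both genotypes for each adaptor, and Zmpste24-/- culture 2 was the lowest. Both genes passed the F-test, with limma adjusted p of 0.00414 for Fcer1g and 4.23e-04 for Tyrobp. Trem2, a lipid-sensing receptor, had 131, 8.68 and 4.87 in Zmpste24-/-, against 72.0, 9.76 and 19.5 in wild type. The activating receptor gene Fcgr3 had 259, 41.0 and 44.7 in Zmpste24-/-, against 127.5, 35.3 and 76.9 in wild type. These receptors also had their highest values in number 1, and outside it in wild-type culture 3. The high-affinity receptor gene Fcgr1 was dim, at 61.3, 24.4 and 21.9 in Zmpste24-/- and 59.6, 38.0 and 26.2 in wild type.

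Fcgr2b, the inhibitory Fc receptor gene, differed between its probe sets. The brightest had 198, 136 and 152 in Zmpste24-/-, against 126, 149 and 128 in wild type, and no number stood apart (F-test, limma adjusted p = 0.798). The next had 145, 19.9 and 2.34 in Zmpste24-/-, against 79.8, 7.33 and 46.3 in wild type. That one was high in number 1 and passed the F-test (limma adjusted p = 0.0405). Fc receptor genes are close relatives, and which transcripts each probe set binds was not analysed here.

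The pattern recognition and scavenger receptors were mixed. Cd14, the lipopolysaccharide co-receptor, had 839.9, 256.5 and 181 in Zmpste24-/-, against 677.5, 258 and 307 in wild type. Cd68, a glycoprotein of late endosomes, had 575, 178 and 157 in Zmpste24-/-, against 313, 199 and 218 in wild type. Both were high in number 1 and kept signals above 150 elsewhere, and both passed the F-test (limma adjusted p = 0.00124 and 0.0177). The mannose receptor gene Mrc1 had 74.0, 46.7 and 31.5 in Zmpste24-/-, against 45.6, 38.5 and 43.9 in wild type. Msr1, a receptor for modified lipoproteins, had 99.2, 23.9 and 41.6 in Zmpste24-/-, against 34.8, 67.2 and 59.1 in wild type. For both genes the highest culture was Zmpste24-/- 1, while wild-type culture 1 lay within the range of the others, and neither passed the F-test (limma adjusted p = 0.489 and 0.789). The haemoglobin scavenger gene Cd163 stayed at or under 30.5 in every culture.

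All 6 tested genes of leukocyte surface proteins and integrins passed the F-test, against 41.6% of all probe sets tested. Of these, Ptprc, Itgb2 and Cd84 passed the filter only through number 1. Without a filter, Itgb2, Cd84 and Adgre1 were not called. Cd53, a tetraspanin of leukocytes, had 1058, 75.1 and 64.1 in Zmpste24-/-, against 956, 74.2 and 112 in wild type. Its number 1 minus 2 difference of 3.49 had an SE of 0.22 and the F-test's limma adjusted p was 2.97e-05, the smallest of the 30 genes. Within number 1 the Zmpste24-/- signal was 1.11 times the wild-type signal, the smallest ratio of the 30 genes. The genotype difference was -0.17 (SE 1.27), with limma adjusted p of 1.0 and 0.805 with the replicate block. Ptprc, which encodes the phosphatase CD45, had 116, 12.1 and 19.2 in Zmpste24-/-, against 57.5, 20.6 and 24.8 in wild type. Adgre1, the classical surface marker of mouse macrophages, had 258, 102 and 89.5 in Zmpste24-/-, against 157, 82.8 and 104.5 in wild type. The cultures numbered 1 were again the high ones for both. Cd52, a small lipid-anchored glycoprotein, had 278, 72.6 and 70.1 in Zmpste24-/-, against 162, 66.2 and 85.3 in wild type. Cd84, a receptor of the SLAM family, had 96.1 in Zmpste24-/- culture 1 and 58.5 in wild-type culture 1, and 16.1 to 26.8 in the other 4. Itgb2, the beta chain of leukocyte integrins, had 175, 15.9 and 5.05 in Zmpste24-/-, against 61.3, 6.12 and 38.6 in wild type. These too were highest in number 1, and the Itgb2 partner Itgam stayed at or under 38.1 in every culture. Cx3cr1, the fractalkine receptor, had 39.3 in Zmpste24-/- culture 1 and 67.1 in wild-type culture 1, and 16.4 to 33.2 in the other 4. Its other probe set went the opposite way, at 3.65 and 2.38 in Zmpste24-/- and wild-type culture 1, and 5.94 to 25.8 in the other 4. Both Cx3cr1 probe sets were under the filter.

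The lysosomal and oxidase genes included the brightest signals. Lyz2, the lysozyme gene of macrophages, had 7191, 463 and 474 in Zmpste24-/-, against 4219, 592.5 and 871 in wild type. The number 1 minus 2 difference was 3.36 (SE 0.31), and the F-test's limma adjusted p was 1.52e-04. The genotype difference was -0.15 (SE 1.22), with limma adjusted p of 1.0 and 0.889 with the replicate block. Ctss, which encodes cathepsin S, had 1482, 233 and 230.4 in Zmpste24-/-, against 1086, 273 and 442 in wild type. Both genes were high in number 1 and kept signals above 230 in all cultures. Mpeg1, a pore-forming protein of phagosomes, had 614, 11.4 and 10.3 in Zmpste24-/-, against 258, 16.2 and 87.1 in wild type. Outside number 1 it exceeded the filter level in wild-type culture 3 alone. Its genotype difference was -0.33 (SE 1.38), with limma adjusted p of 1.0 and 0.869 with the replicate block. Cybb, the catalytic subunit of the phagocyte oxidase, had 134, 15.4 and 25.7 in Zmpste24-/-, against 82.9, 18.6 and 10.4 in wild type. Mpeg1 and Cybb passed the F-test, with limma adjusted p of 0.0032 and 0.00547. A second tested Cybb probe set of similar brightness (mean 46.5, against 47.8) was not called (F-test, limma adjusted p = 0.272). On it, wild-type culture 1 (43.4) lay under wild-type culture 3 (51.8).

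Lyz1 and Laptm5 need their probe sets told apart. The brightest Lyz1 probe set had 12130, 1008 and 1076 in Zmpste24-/-, against 8316, 1349 and 1973 in wild type. Its suffix, x_at, marks probes that can bind related transcripts, and Lyz1 and Lyz2 are near-identical copies, so this signal is uncertain. The one Lyz1 probe set without such a suffix had 38.0, 37.9 and 25.6 in Zmpste24-/-, against 5.88, 60.3 and 20.4 in wild type, and was not high in number 1. Laptm5, a lysosomal membrane protein of blood cells, had 220.0, 94.1 and 162.5 in Zmpste24-/- by its brightest probe set, against 173.5, 172 and 194 in wild type. Its second probe set had 439, 49.9 and 35.3 in Zmpste24-/-, against 214, 68.9 and 65.0 in wild type. The first did not separate the numbers (F-test, limma adjusted p = 0.229) and the second did (0.00247), but it too has the suffix x_at. The other tested Laptm5 probe sets, with means of 55.0 and 49.8, were not called (F-test, limma adjusted p = 0.788 and 0.233).

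**Figure D4:**
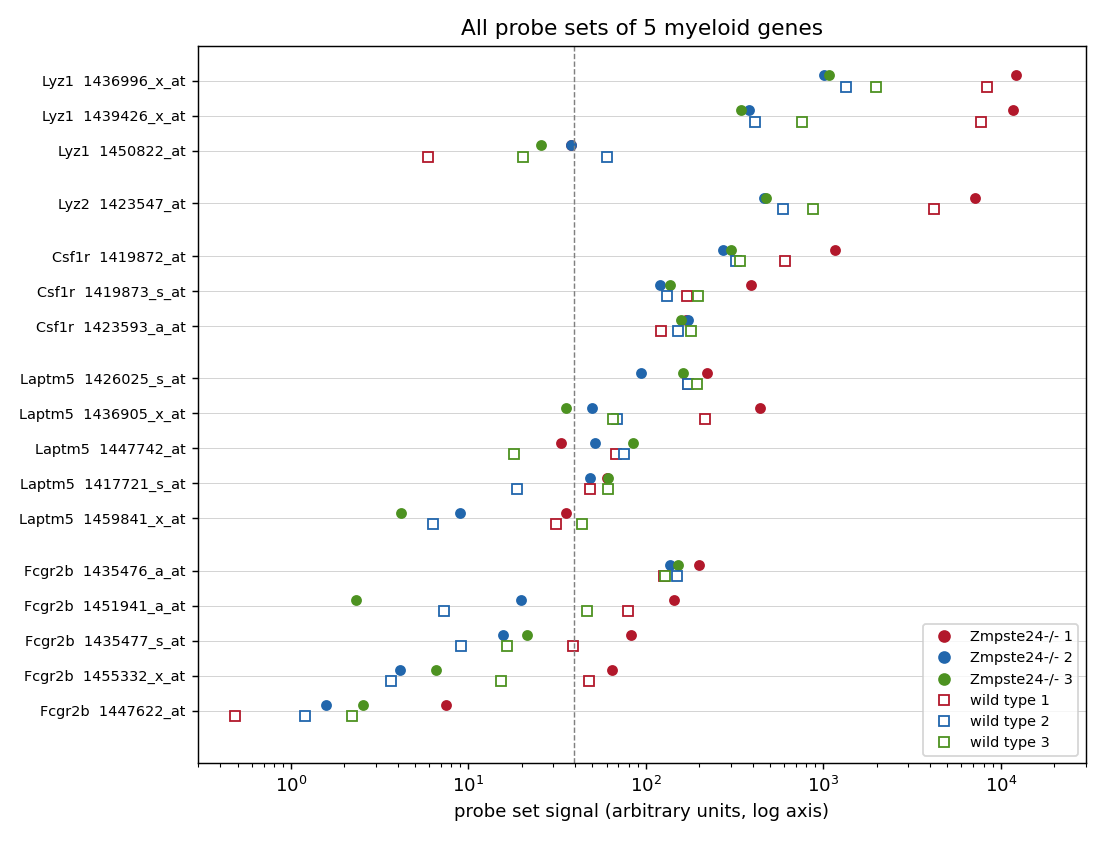
Signals of every probe set of Lyz1, Lyz2, Csf1r, Laptm5 and Fcgr2b (log axis, arbitrary units), with the brightest of each gene on top. Filled circles are Zmpste24-/- and open squares wild-type cultures, coloured by culture number, and the dashed line is the filter level of 39.4; red points are far to the right for some probe sets of a gene and not for others.

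Of the leukocyte cytoskeleton and signalling genes, the actin-binding genes Coro1a and Lcp1 differed by number and Vav1 did not. Coro1a had 264, 84.8 and 75.4 in Zmpste24-/-, against 156, 84.9 and 57.1 in wild type. Lcp1, which encodes L-plastin, had 245.4, 29.1 and 33.3 in Zmpste24-/-, against 137, 22.7 and 67.4 in wild type. Both were high in number 1, with limma adjusted p of 0.00392 and 0.00403 in the F-test. Vav1, a signalling protein of blood cells, had 102, 79.7 and 107 in Zmpste24-/-, against 90.5, 75.6 and 102 in wild type. No culture stood out, and the F-test's limma adjusted p was 0.389. Pf4, a chemokine of platelets and macrophages, had 129, 71.4 and 60.8 in Zmpste24-/-, against 88.6, 56.1 and 62.2 in wild type. It was highest in number 1 but did not pass (limma adjusted p = 0.103).

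Among the 4 cultures numbered 2 and 3, wild-type culture 3 had the highest signal for 21 of the 30 tested genes. It was the highest of these 4 for 19.7% of all probe sets tested. Zmpste24-/- cultures 2 and 3 were highest for 2 and 3 of the 30 genes, and wild-type culture 2 for 4. The separation was clearest for Mpeg1 and C1qc, given above. This pattern rests on 1 array and was not tested.

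The 30 tested genes were also alike in profile. Across the 6 arrays 20 of them correlated with the mean of their standardised profiles at Pearson's r over 0.95. The lowest were Vav1 (0.38), Msr1 (0.57), Fcgr2b (0.58) and Laptm5 (0.63), the genes described above as flat or mixed. These values describe 6 arrays of which 2 stand apart, and each gene is part of the mean. Of 13008 other tested genes, 354 (2.72%) had r over 0.95 with the same mean. The 15 closest included Ms4a7, a membrane protein of macrophages (r = 0.993), Alox5ap, which serves leukotriene synthesis (0.992), and Srgn, the proteoglycan of secretory granules (0.9895). Ms4a7 had 519.7, 45.0 and 53.9 in Zmpste24-/-, against 239, 73.8 and 84.0 in wild type. The highest r of all, 0.998, belonged to the phosphatase gene Ppm1b, whose signal ranged only from 2574 to 3116. The others of the 15, Zfp365, Cox11, Pdp1, Pigg, Otor, Fbxo15, Kcnma1, Mapkbp1, Dsp, Mreg and Pqlc3, had r of 0.989 to 0.998. A high correlation here therefore does not imply a wide range. Some genes outside the macrophage lists did range widely. Otor had 383, 30.1 and 33.7 in Zmpste24-/-, against 129, 25.2 and 39.9 in wild type. Dsp had 533, 55.4 and 41.7 in Zmpste24-/-, against 206, 57.4 and 62.35 in wild type. The profile was thus not particular to the myeloid genes.

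Other genes of macrophage biology were set against the same shares of all probe sets, 41.6% called by the F-test and 22.1% called as higher in number 1. Of 8 tested Toll-like receptor and co-receptor genes, 5 passed the F-test, all higher in number 1. Unc93b1, which carries Toll-like receptors to endosomes, had 511, 141 and 178 in Zmpste24-/-, against 546, 187 and 202 in wild type. Unlike most of the 35 genes, it was not higher in Zmpste24-/- within number 1. All 3 tested subunits of the phagocyte oxidase in that list passed, each higher in number 1, and Ncf1 had 156, 43.7 and 59.7 in Zmpste24-/-, against 92.7, 42.6 and 57.6 in wild type. Of 13 other macrophage surface receptors 6 passed, all higher in number 1, among them Gpnmb, a glycoprotein of phagocytes and bone cells, at 2047 and 2114 in Zmpste24-/- and wild-type culture 1. Of 6 tested macrophage chemokines and receptors 2 passed, both higher in number 1, and Ccl9 had 488 in Zmpste24-/- culture 1 and 459.7 in wild-type culture 1, with 67.5 to 149 in the other 4. Of 13 tested genes that act downstream of ITAM receptors 5 passed, 4 higher and 1 lower in number 1. In these lists too, a gene could pass the filter through number 1 alone. Among the genes called, Clec4n, Ms4a6d, Cd48, Ccl6, Plek and Fyb had means under 39.4 over numbers 2 and 3. Of the 42 genes tested in these lists, limma called 0 between the genotypes with or without the replicate block, and at an unadjusted p under 0.05 there were 0 without and 1 with it, Inpp5d, a lipid phosphatase gene of blood cells.

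Of 9 tested growth factors and chemokines that act on macrophages, 5 passed the F-test as higher and 1 as lower in number 1. The chemokine gene Cxcl12 had 15988, 8388 and 9533 in Zmpste24-/-, against 13381, 8103 and 7876 in wild type. Ccl2, which draws in monocytes, had 6463, 4218 and 3956 in Zmpste24-/-, against 8644, 3951 and 4888 in wild type. Number 1 was high for both genes in each genotype. Of 10 tested myeloid transcription factors 3 passed as higher and 1 as lower in number 1, and of 3 tested granulocyte-macrophage growth factor receptors 1 passed as higher. Maf, a factor of macrophages and other cells, had 1351, 578 and 563 in Zmpste24-/-, against 1216, 424 and 551 in wild type. Cebpb had 5452, 5666 and 5260 in Zmpste24-/- and 5814, 6009 and 5685 in wild type, and did not pass. Between the genotypes limma called 0 of the growth factors and chemokines and 0 of the transcription factors, with or without the replicate block. At an unadjusted p under 0.05 there were 0 in either list without the block. With it there were 4 of the 9 growth factors and chemokines (Mif, Cxcl12, Tnfsf11 and Ccl7, with limma adjusted p of 0.417 to 0.523) and 1 of the 10 transcription factors (Cebpa, 0.538), against 8.99% of all probe sets. The log2 differences, Zmpste24-/- minus wild type, were -0.15 for Mif, 0.19 for Cxcl12, 0.41 for Tnfsf11 and -0.25 for Ccl7. Ccl7 is named because the count is small, after its values were seen.

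Markers of most other blood cells were low. Of 10 T and NK cell markers, 6 B cell markers and 10 neutrophil markers with a probe set, 1 each passed the filter. These were Cd8a, Cd22 and Ngp, with limma adjusted p of 0.602, 0.778 and 0.807 in the F-test by number. The summed signals were 184 to 373 in Zmpste24-/- and 337 to 419 in wild type for T and NK cells. For B cells they were 143 to 213 in Zmpste24-/- and 238 to 265 in wild type. For neutrophils they were 150 to 324 in Zmpste24-/- and 180 to 227 in wild type. Mast cell and erythroid markers had 2 tested genes each, of which 1 each was called. Megakaryocyte and platelet markers summed to 1293 to 1728 in Zmpste24-/- and 1288 to 2515 in wild type, most of it from Ppbp, and 0 of 4 were called by number in limma, with 1 at an unadjusted p under 0.05. Of 6 tested endothelial markers 1 was called, lower in number 1. Fibroblast markers summed to 127550 to 144667 in Zmpste24-/- and 131157 to 149335 in wild type, and 8 of 15 passed the F-test, 5 higher and 3 lower in number 1, against 41.6% of all probe sets called. Lum, which encodes the matrix proteoglycan lumican, had 7892, 292 and 483.5 in Zmpste24-/-, against 6548, 681 and 576.5 in wild type (limma adjusted p = 4.28e-05). Dcn, which encodes decorin, had 6233, 477 and 825.5 in Zmpste24-/-, against 4457, 660.3 and 862 in wild type (2.77e-05). Both were high in number 1 and were named after their values were seen. The mean of number 1 over that of the other 4 cultures was 0.892 for Vim and 0.996 for Col1a2, against 14.2 for Lum and 7.57 for Dcn. The part of fibroblasts or other cells in the myeloid difference was not tested.

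**Figure D5:**
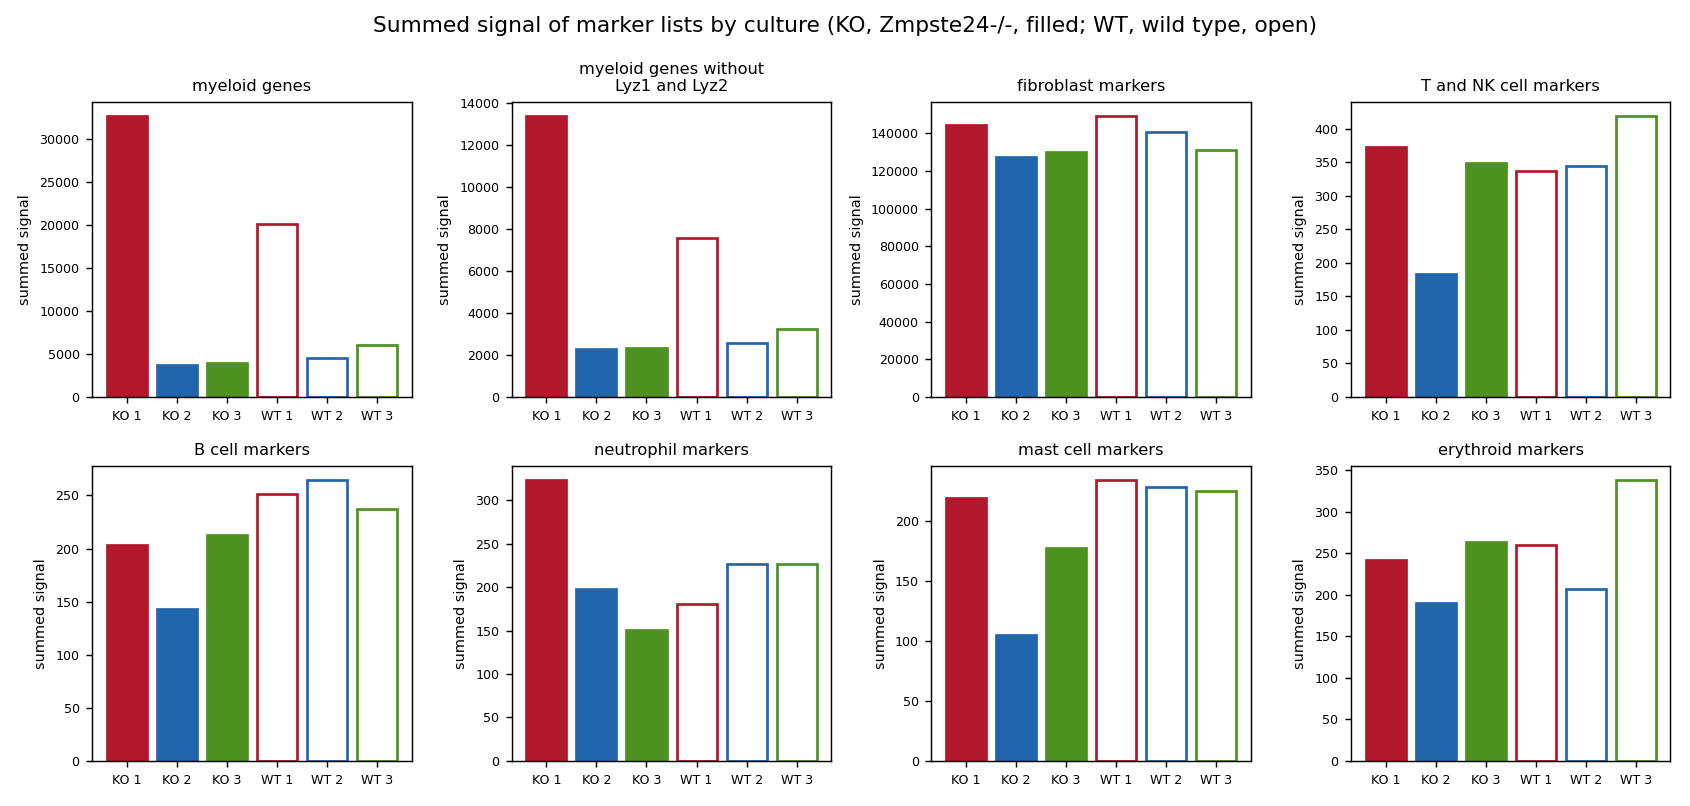
Summed signal of marker lists in each culture (bars from 0, arbitrary units; filled, Zmpste24-/-; open, wild type; colour gives the culture number). The first panels hold the 35 genes with and without Lyz1 and Lyz2 and stand high in both cultures numbered 1, while sums for T and NK cells, B cells, neutrophils, mast cells and erythroid cells stay under 420 throughout.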

How the data were processed

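RNA of 3 Zmpste24-/- and 3 wild-type cultures was measured on 1 array each. The authors deposited 1 linear intensity per probe set, made with the Affymetrix program GCOS per the submitters' processing notes. What version, algorithm and background correction it used is not given in the sources used here. Scanner files were not analysed here, and the number of arrays limits the precision. Each array's mean is 500 after trimming 2% at each end, so a change in total RNA cannot be seen.

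The table holds 45101 probe sets, of which 64 controls were left out. The platform annotation gives 34945 probe sets 1 symbol and 932 several, and does not list 9160. Of those with 1 symbol, 34741 matched a RefSeq table of GRCm38.p6 by gene identifier and 0 changed name. Values were analysed as log2(value + 16), which understates changes of dim genes. limma 3.58.1 in R 4.3.3 was run with an intensity trend over 27022 probe sets of 13038 named genes, and an adjusted p under 0.05 was called. It was also run on simulated data in which only a small altered set of probe sets differed by culture number, unlike these data. That check therefore does not show how the genotype fit without a block behaves here. Figures used matplotlib 3.10.9.

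The 35 genes, the other lists and the motifs were chosen with earlier results of these data known. Named were all 35 genes, the 3 brightest and up to 2 with the smallest genotype p of each other list, the 15 genes most alike in profile, and Zmpste24, Xist, Eif2s3y and Kdm5d. Text values were drawn from these. The deviations of cultures 1, 2 and 3 from their group means had r of 0.83, 0.59 and 0.57 between genotypes. All exceed 0.1, the limit for treating numbers as pairs, so block values are given. Cultures 2 and 3 had r of 0.55 and 0.49 when crossed. Promoter sequences are RefSeq's. Alternatives were other pseudocounts, filters, normalizations, array weights, no trend, averaged probe sets per gene, a threshold of 0.1, the block, numbers 2 and 3 alone, and each array left out.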

Additional observations from a re-analysis of the deposited data

How the results depend on the processing

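The count of myeloid genes called between genotypes was 0 under every alternative run. Over all probe sets it was 0, and became 1 with array weights, 5 with the replicate block, 20 with replicates 2 and 3 alone, and 0 to 4 when each array was left out, with 4 without wild-type replicate 1. The median genotype difference of the tested myeloid genes, 0.13, lay between -0.60 (without Zmpste24-/- replicate 1) and 0.49 (without wild-type replicate 1), and was -0.28 in replicates 2 and 3 alone and -0.20 with array weights, so its sign changed with the setting. The replicate block changed no call of a myeloid gene. The 23 of 30 genes called by culture number (41.6% of all probe sets) became 14 of 16 with the filter of 60% (56.5% of all), 14 of 30 without an intensity trend (28.6%), and 13 to 23 of 30 with each array left out, the fewest without Zmpste24-/- replicate 1 (31.0%). They were 18 of 28 with averaged probe sets (33.4%), 20 of 35 without a filter (21.3%), 21 of 30 with a pseudocount of 1 (40.9%) and 23 of 30 with the other settings. Single-gene alternatives were run for the genes whose fitted genotype difference is given. C1qa reversed to -0.35 with array weights, -0.33 with a pseudocount of 1 and -0.37 in replicates 2 and 3 alone. Csf1r and Spi1 reversed to -0.11 and -0.07 with array weights, and to -0.20 and -0.02 in replicates 2 and 3 alone. With each array left out the ranges were -1.70 to 1.55 for C1qa, -0.48 to 0.54 for Csf1r, -0.09 to 0.34 for Spi1, -1.39 to 0.89 for Cd53, -1.44 to 0.70 for Lyz2 and -1.85 to 0.44 for Mpeg1. None of these passed the test, and the cause of each change was not tested beyond which array was left out. Detection calls were not used here, so how far signals under 39.4 stand above background is not known.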

Other observations

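Genes of bone-resorbing cells and of microglia, which are relatives of macrophages, were few among those tested. Of 4 tested osteoclast markers the F-test by number called 2 as higher and 1 as lower in number 1, and of 3 tested microglia markers 2 as higher, against 41.6% of all probe sets called in either direction and 22.1% called as higher. Ctsk, which encodes cathepsin K and is also made by fibroblasts, had 2493, 1574 and 1635 in Zmpste24-/-, against 2932, 1310 and 1714 in wild type (F-test by culture number, limma adjusted p = 0.00146). Acp5, the tartrate-resistant phosphatase of osteoclasts, had 143, 49.1 and 63.7 in Zmpste24-/-, against 115, 47.1 and 23.9 in wild type (0.0151). Both were high in number 1. Olfml3, a secreted protein of microglia and other cells, had 3530, 1882 and 2220 in Zmpste24-/-, against 3404, 1950 and 1808 in wild type (5.24e-04). Mmp9, a gelatinase of osteoclasts and other cells, had 22.9, 121 and 127 in Zmpste24-/-, against 33.1, 144 and 115 in wild type, and was low in number 1 (limma adjusted p = 0.00112).

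Among class II antigen presentation genes, 4 of 5 tested passed the F-test, 3 of them higher in number 1. The shares of all probe sets tested were 41.6% called and 22.1% called as higher. Of the genes called, H2-Ab1 passed the filter only through number 1, with a mean of 11.1 over numbers 2 and 3. H2-Eb1 had 278, 88.5 and 38.4 in Zmpste24-/-, against 145, 44.9 and 20.8 in wild type, and H2-DMa had 401, 120 and 130.1 in Zmpste24-/-, against 453, 162 and 149 in wild type. Cd74, the invariant chain gene, passed with number 2 as the high one, at 89.5, 133 and 90.8 in Zmpste24-/- and 94.8, 204 and 102 in wild type (limma adjusted p = 0.0412). Its differences were -0.74 for number 1 minus 2 and -0.05 for number 1 minus 3.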
